A study of Mus musculus with 18 samples.

Results

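Interleukin-6 (IL-6) family cytokines, their receptors and the subunits of the IL-22 receptor were examined in whole mouse colon by RNA-Seq. The 10 genes were chosen by name from a count table of 47729 genes, each gene identifier being matched to its symbol. They comprised 4 cytokines (*Il6*, *Il11*, *Osm* and *Lif*) and 6 receptor subunits (*Il6ra*, *Il6st*, *Osmr*, *Il11ra1*, *Il22ra1* and *Il10rb*). All 10 genes had a row in the table, and the IL-22 ligand itself was taken with the other genes of the pathway. The test of differential expression needed a minimum of reads, and 7 of the 10 genes passed it in each comparison, since *Il6*, *Il11* and *Osm* were too low.

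IL-6 family cytokines signal through gp130, the shared subunit encoded by *Il6st*, which pairs with a receptor for each ligand: *Il6ra* for IL-6, *Il11ra1* for IL-11, *Osmr* for oncostatin M, and *Lifr* for leukemia inhibitory factor. IL-22 uses a separate pair, the epithelial subunit encoded by *Il22ra1* and the widely expressed *Il10rb*, which also serves the IL-10 receptor. Both systems activate Janus kinases and STAT3, induce the feedback inhibitor *Socs3*, and are known in the colon for epithelial repair, antimicrobial defense and colitis-associated cancer (CAC).

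The study asked how overexpression of claudin-2, a channel-forming tight junction protein, affects CAC. The 3 groups of 3 mice were WT colon labelled Control (naive WT, mice 1 to 3), WT colon after AOM-DSS (WT CAC, mice 4 to 6) and Claudin-2TG colon after AOM-DSS (*Cldn2*TG CAC, mice 7 to 9). AOM-DSS was 1 dose of the carcinogen azoxymethane at 10 mg/kg followed by 3 cycles of 2.5% dextran sodium sulfate in drinking water. The labels print the same protocol under the Control samples, whose treatment label says Control, and that label was followed. All mice were of C57BL/6 background with littermate controls, and the transgene was driven by the villin promoter, which is active in intestinal epithelium. No naive *Cldn2*TG mice are among the samples, so the effects of the transgene with and without AOM-DSS cannot be told apart. Ages are not given in the sources used here. Neither WT CAC nor *Cldn2*TG CAC samples are labelled as tumor or as adjacent mucosa.

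Each library held 14142711 to 22262546 counted reads, in 2 sequencing lanes that were added. Levels are given as counts scaled to library size (CPM) with TMM normalization, and 3 reads, the limit below which no level is read, corresponded to 0.135 to 0.212 CPM. This limit covers counting error only. The summed level of 10 epithelial markers was 21830 to 29140 CPM and none of them was at 0 in any group. *Cldn2* was 192 to 259 CPM in naive WT, 119 to 137 CPM in WT CAC and 208 to 251 CPM in *Cldn2*TG CAC. It was therefore higher in *Cldn2*TG CAC than in WT CAC (log2 fold change 0.78 ± 0.12 (SE), adjusted p = 0.0103 by edgeR's quasi-likelihood test; lost without mouse 8 or 9, adjusted p up to 0.0597), and overlapped between *Cldn2*TG CAC and naive WT. The counts do not separate reads of the transgene from those of the endogenous gene. Naive WT mouse 1 had 214 CPM of *Xist*, the RNA of the inactive X chromosome, and the other 8 mice had at most 0.203 CPM. Each of 4 Y-linked genes (*Ddx3y*, *Kdm5d*, *Uty* and *Eif2s3y*) was at most 0.199 CPM in mouse 1 and 20.2 to 82.7 CPM in the others. By these genes mouse 1 was female and the other 8 male, so the naive WT group holds both sexes, and calls of the 10 genes and of the named pathway genes against naive WT that were lost without mouse 1 are given as such. WT CAC mouse 4 stood apart from the other WT CAC mice in several of the genes described here, and values without it are given beside the results that it changes. Mouse 4 was singled out by these values themselves, and its 19143664 counted reads lay within the range of the libraries. Fits without it are therefore a description only, and calls gained in them are not further evidence. In bulk colon, fewer cells of a type and less RNA per cell cannot be told apart.

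Per kilobase of gene length (FPKM), the levels of the 10 genes spanned several orders of magnitude, and by their mean over the mice the 4 highest were receptor subunits. *Il10rb* was the highest, with 17.9 to 18.4 FPKM in naive WT, 21.0 to 25.2 FPKM in WT CAC and 17.6 to 21.8 FPKM in *Cldn2*TG CAC. *Il22ra1* followed with 6.82 to 20.2 FPKM over the 9 mice and stayed below *Il10rb* in each of them. *Il6st* and *Il11ra1* came next, at 2.20 to 5.65 FPKM and 2.67 to 4.57 FPKM, and their ranges overlapped. *Lif* at 0.536 to 2.43 FPKM and *Il6ra* at 0.434 to 1.01 FPKM did not differ beyond the spread between mice. *Osmr* at 0.0878 to 1.32 FPKM and *Il11* at 0.0367 to 1.23 FPKM overlapped across nearly their whole ranges. *Osm* reached at most 0.564 FPKM and *Il6* at most 0.0552 FPKM.

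**Figure D1:**
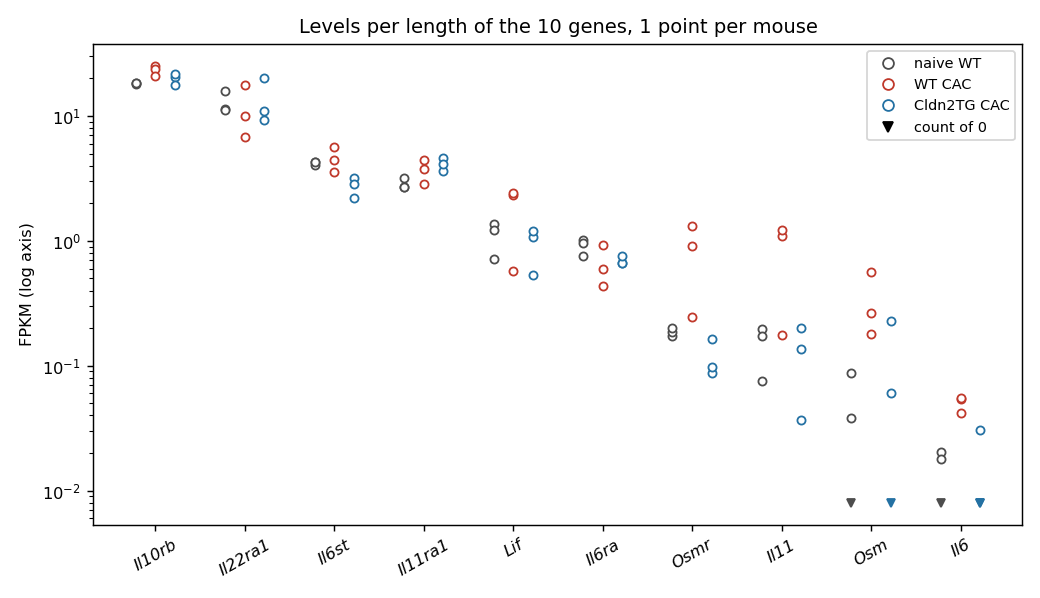
Levels per length of the 10 genes (FPKM, log axis), with 1 point per mouse colored by group and triangles for a count of 0. *Il10rb* and *Il22ra1* lie highest, *Osm* and *Il6* lowest, and *Osmr* and *Il11* spread widest in WT CAC.

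The sequences upstream of 3 cytokine genes are shown because their windows hold the letters of AP-1, a transcription factor that acts in inflamed and injured tissue. RefSeq promoters (GRCm38.p6) were found for 8 of the 10 genes, with no entry for *Osm* and *Il10rb*. The 250 bases before each start were searched on both strands for the letters TGANTCA (AP-1), GGGNNTTTC (NF-kB) and TTCNNNGAA (STAT). Windows are printed 5′ to 3′ on the gene's strand up to the first annotated exon, with the matched letters in capitals: *Il6* at chr5:30012864-30013113 (+), the inner of 2 *Il11* starts at chr7:4778142-4778391 (-) and *Lif* at chr11:4257318-4257556 (+).
Il6: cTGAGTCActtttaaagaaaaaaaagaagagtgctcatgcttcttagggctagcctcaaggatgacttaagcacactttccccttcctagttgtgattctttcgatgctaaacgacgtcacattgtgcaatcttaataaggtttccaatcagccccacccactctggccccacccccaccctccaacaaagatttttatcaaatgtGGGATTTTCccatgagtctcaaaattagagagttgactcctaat
Il11: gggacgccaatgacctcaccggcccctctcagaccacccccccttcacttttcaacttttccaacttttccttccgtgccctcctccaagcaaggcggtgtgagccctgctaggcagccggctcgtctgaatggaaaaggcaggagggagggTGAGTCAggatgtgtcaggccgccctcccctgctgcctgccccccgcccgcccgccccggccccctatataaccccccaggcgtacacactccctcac
Lif: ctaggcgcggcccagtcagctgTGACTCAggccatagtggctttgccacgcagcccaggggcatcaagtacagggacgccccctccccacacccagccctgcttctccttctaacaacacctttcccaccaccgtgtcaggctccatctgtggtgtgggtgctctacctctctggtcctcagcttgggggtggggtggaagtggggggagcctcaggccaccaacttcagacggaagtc

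The AP-1 letters began 249 bases before the start of *Il6*, 98 bases before the inner start of *Il11* and 228 bases before that of *Lif*. They were also found 222 bases before *Il22ra1*. *Il6* alone held the NF-kB letters, 44 bases before its start. Of all 32536 windows, 6.73% held the AP-1, 3.71% the NF-kB and 7.04% the STAT letters. No window of the 8 genes held the STAT letters, and those of *Il6ra*, *Il6st*, *Osmr*, *Il11ra1* and the outer *Il11* start held none of the motifs, which says only that these letters are not in these windows.

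Of the 4 cytokines, *Il6* was at or below the limit of 3 reads in every mouse, and *Il11* and *Osm* had few reads outside WT CAC. Summed over the mice, WT CAC held 7 reads of *Il6*, 94 of *Il11* and 46 of *Osm*, naive WT held 2, 19 and 6, and *Cldn2*TG CAC held 1, 13 and 9. *Il6* (chr5:30013114-30019981, +), which drives acute-phase and STAT3 responses, had 1, 0 and 1 reads in naive WT, 2, 3 and 2 reads in WT CAC and 0, 0 and 1 reads in *Cldn2*TG CAC. No library exceeded 3 reads, so no difference in *Il6* was detectable at this depth and no fold is given.

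*Il11* (chr7:4772373-4782857, -), made by fibroblasts and epithelium in injured mucosa, had 8, 3 and 8 reads in naive WT (0.398, 0.151 and 0.347 CPM). In WT CAC it had 7, 50 and 37 reads (0.356, 2.21 and 2.48 CPM), and in *Cldn2*TG CAC 4, 8 and 1 reads (0.276, 0.405 and 0.0739 CPM). WT CAC mice 5 and 6 were above every other mouse, while mouse 4 lay within the naive and *Cldn2*TG ranges, so the groups overlapped. *Il11* did not pass the filter on low counts. Fitted without that filter, it was higher in WT CAC than in naive WT (log2 fold change 2.44 ± 0.67, adjusted p = 0.0408) and lower in *Cldn2*TG CAC than in WT CAC (-2.62 ± 0.72, adjusted p = 0.0468), against 9.4% and 6.53% of all genes called in these fits. Without the filter and with mouse 4 left out, the values were 2.94 (adjusted p = 3.88e-06) and -3.11 (adjusted p = 4.66e-08), where 18.5% and 15.7% of all genes were called. The rise over naive WT was lost when any of the mice 1, 2, 3, 5 or 6 was left out (adjusted p = 0.0944 to 0.151), and the difference of *Cldn2*TG CAC was lost without mouse 7, 8 or 9 (adjusted p = 0.0792 to 0.164).

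*Osm*, the oncostatin M gene (chr11:4236420-4241026, +) expressed mainly by myeloid cells, had 4, 0 and 2 reads in naive WT, 8, 29 and 9 reads in WT CAC and 2, 0 and 7 reads in *Cldn2*TG CAC. In CPM these were 0.199, 0 and 0.0869, then 0.406, 1.28 and 0.603, then 0.138, 0 and 0.517. WT CAC did not overlap naive WT, whereas *Cldn2*TG CAC mouse 9 lay among the WT CAC mice. Without the filter *Osm* was higher in WT CAC than in naive WT (2.94 ± 0.75, adjusted p = 0.0204), and the value against *Cldn2*TG CAC was -1.92 ± 0.83 (adjusted p = 0.248). The first of these calls was lost without mouse 2, 3 or 5 (adjusted p = 0.084 to 0.117), and the value was 3.92 without mouse 1 and 2.31 without mouse 5. The second value was past the threshold without mouse 4 (-2.27, adjusted p = 0.00403) or without mouse 9 (-3.53, adjusted p = 0.0474).

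*Lif* (chr11:4257557-4272514, +), the leukemia inhibitory factor gene, was the one cytokine that passed the filter. It had 3.08, 5.92 and 5.34 CPM in naive WT, 2.49, 10.1 and 10.6 CPM in WT CAC and 4.68, 2.33 and 5.17 CPM in *Cldn2*TG CAC. WT CAC mice 5 and 6 were the highest of all and mouse 4 was among the lowest, so the groups overlapped in every comparison. The differences did not pass the test: 0.71 ± 0.52 for WT CAC against naive WT (adjusted p = 0.379), -0.95 ± 0.54 for *Cldn2*TG CAC against WT CAC (adjusted p = 0.359) and -0.24 ± 0.33 between *Cldn2*TG CAC and naive WT (adjusted p = 0.683). Without mouse 4 the first and the second became 1.13 (adjusted p = 0.0215) and -1.37 (adjusted p = 0.0146). The 95% confidence interval of the second, from -2.21 to 0.31 with all 6 mice, allows both a large decrease and no decrease.

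**Figure D2:**
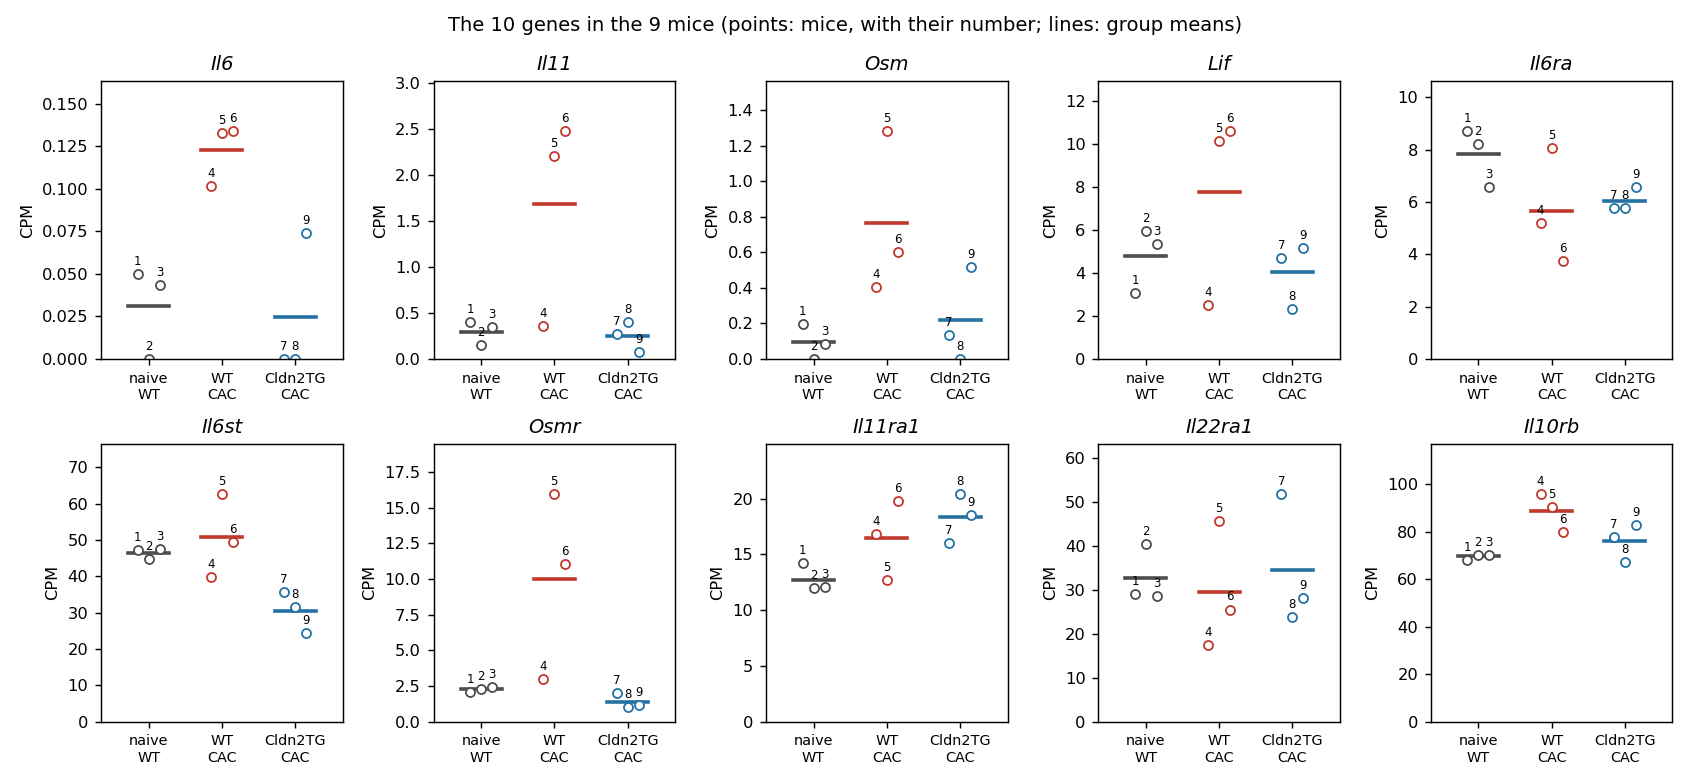
CPM of the 10 genes in each of the 9 mice, with the mouse number beside each point and a line at the group mean. In *Il11*, *Lif* and *Osmr*, WT CAC mice 5 and 6 lie above all other mice, and mouse 4 lies near the naive WT and *Cldn2*TG CAC mice.

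*Osmr* (chr15:6813577-6874969, -), the receptor subunit that pairs with gp130 for oncostatin M, had the largest fold change of the 7 tested genes in both comparisons with WT CAC. It had 2.09, 2.26 and 2.43 CPM in naive WT, 3.00, 16.0 and 11.1 CPM in WT CAC and 2.0, 1.06 and 1.18 CPM in *Cldn2*TG CAC. The 3 groups did not overlap, although WT CAC mouse 4 lay close to naive WT. *Osmr* was higher in WT CAC than in naive WT (log2 fold change 2.17 ± 0.54, adjusted p = 0.0379) and lower in *Cldn2*TG CAC than in WT CAC (-2.85 ± 0.61, adjusted p = 0.0275). *Cldn2*TG CAC against naive WT was -0.68 ± 0.31 and did not pass the test (adjusted p = 0.188). Without mouse 4 the first and the second differences were 2.60 (adjusted p = 0.000357) and -3.28 (adjusted p = 0.000175). Leaving out any other mouse kept the direction and ended the call: the adjusted p was 0.091 to 0.13 without mouse 1, 2, 3, 5 or 6 in the first, and 0.0689 to 0.128 without mouse 5, 6, 7, 8 or 9 in the second.

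*Il6st* (chr13:112464070-112510086, +), which encodes gp130, was low in *Cldn2*TG CAC. It had 47.3, 44.6 and 47.6 CPM in naive WT, 39.8, 62.7 and 49.5 CPM in WT CAC and 35.6, 31.5 and 24.4 CPM in *Cldn2*TG CAC. Each *Cldn2*TG CAC mouse was below each of the other 6 mice. The difference was -0.75 ± 0.20 against WT CAC (adjusted p = 0.0484) and -0.60 ± 0.13 against naive WT (adjusted p = 0.0201). WT CAC and naive WT overlapped (0.15 ± 0.16, adjusted p = 0.556). The call against WT CAC was close to the threshold: it held without mouse 4 (-0.89, adjusted p = 0.00706) and was lost without mouse 5, 6, 7, 8 or 9 (adjusted p = 0.0743 to 0.172) and with lane 1 only (adjusted p = 0.0560). The call against naive WT was lost without mouse 1, 3 or 8 (adjusted p = 0.0538 to 0.0723) and with all 9 libraries in 1 fit (adjusted p = 0.0846).

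Markers of other cells were counted in the same comparisons, in which 15% of all genes were called in WT CAC against naive WT, 9.54% between *Cldn2*TG CAC and WT CAC and 10.0% between *Cldn2*TG CAC and naive WT. Of the lists given here, the monocyte and macrophage, T cell, B and plasma cell and squamous lists exceeded these shares in both comparisons with WT CAC. The fibroblast, endothelial and smooth muscle lists were below the first share. Between *Cldn2*TG CAC and WT CAC the fibroblast and endothelial lists exceeded the share of all genes. Against naive WT, *Cldn2*TG CAC exceeded it in the fibroblast (2 of 9 lower), endothelial and smooth muscle lists. Of 9 monocyte and macrophage markers, 6 rose in WT CAC over naive WT and 7 were lower in *Cldn2*TG CAC than in WT CAC, and their summed level was 57.9 to 104 CPM in naive WT, 134 (mouse 4), 278 and 300 CPM in WT CAC and 38.4 to 70.5 CPM in *Cldn2*TG CAC. Of 9 fibroblast markers, 1 rose in the first comparison and 3 were lower in the second, with a summed level of 318 to 448, 468 to 1155 and 196 to 279 CPM. Of 4 endothelial markers, none passed the test between WT CAC and naive WT, 2 were lower in *Cldn2*TG CAC than in WT CAC and 3 than in naive WT, and their summed level was 29.3 to 37.3, 31.6 to 39.6 and 18.0 to 21.3 CPM. Of 5 smooth muscle markers, 2 were lower in *Cldn2*TG CAC than in naive WT, with summed levels of 1751 to 3297 CPM in naive WT, 2504 (mouse 4), 915 and 1072 CPM in WT CAC and 819 to 1276 CPM in *Cldn2*TG CAC. Of 6 T cell markers, 5 rose in WT CAC and 5 were lower in *Cldn2*TG CAC than in WT CAC, with summed levels of 5.47 to 10.9, 17.7 to 31.0 and 6.64 to 10.5 CPM. Of 5 B and plasma cell markers, 1 rose and 2 were lower, with summed levels of 309 to 364, 445 to 770 and 291 to 366 CPM. Of 5 squamous epithelial markers, which glandular colon lacks, the 2 tested in both comparisons (*Krt13* and *Krt14*) rose in WT CAC and were lower in *Cldn2*TG CAC than in WT CAC, and the summed level was 1.19 to 2.41, 18.7 to 53.0 and 3.09 to 4.06 CPM. Apart from *Krt6a* in naive WT and *Trp63* in naive WT and *Cldn2*TG CAC, none of these markers was at 0 throughout a group. Their part in the levels of *Osmr*, *Il6st*, *Il11* and *Osm* was not tested.

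*Il6ra* (chr3:89864059-89913196, -), the IL-6 receptor alpha chain, did not pass the test in any comparison. It had 8.71, 8.23 and 6.56 CPM in naive WT, 5.18, 8.05 and 3.75 CPM in WT CAC and 5.79, 5.78 and 6.57 CPM in *Cldn2*TG CAC. The 3 groups overlapped one another. The differences were -0.44 ± 0.29 for WT CAC against naive WT (adjusted p = 0.334), 0.07 ± 0.29 for *Cldn2*TG CAC against WT CAC (adjusted p = 0.939, 95% interval -0.60 to 0.73) and -0.37 ± 0.19 between *Cldn2*TG CAC and naive WT (adjusted p = 0.237). A gene model, Gm42809, overlaps *Il6ra* on the opposite strand, and whether counting used the strand is not given in the sources used here.

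*Il11ra1* (chr4:41699989-41769474, +), the IL-11 receptor alpha chain, had 14.2, 11.9 and 12.0 CPM in naive WT, 16.9, 12.7 and 19.8 CPM in WT CAC and 16.1, 20.4 and 18.5 CPM in *Cldn2*TG CAC. *Cldn2*TG CAC lay above naive WT in every mouse (0.53 ± 0.14, adjusted p = 0.0407). WT CAC overlapped both other groups, at 0.39 ± 0.19 over naive WT (adjusted p = 0.199) and 0.14 ± 0.19 for *Cldn2*TG CAC against WT CAC (adjusted p = 0.764). The call against naive WT was lost without mouse 2, 3, 8 or 9 (adjusted p = 0.0859 to 0.151), with library size as the only normalization (0.42, adjusted p = 0.094), with lane 1 only (adjusted p = 0.0744), with lane 2 only (adjusted p = 0.0546) and with all 9 libraries in 1 fit (adjusted p = 0.141). *Il11ra1* overlaps 6 other genes, and its near-identical copy *Il11ra2* was listed at 0 in all 9 mice. Reads shared by such copies can be lost or assigned to 1 of them, so the level of *Il11ra1* is uncertain.

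*Il22ra1* (chr4:135728172-135752140, +), the epithelial subunit of the IL-22 receptor, had 29.1, 40.4 and 28.6 CPM in naive WT, 17.5, 45.6 and 25.5 CPM in WT CAC and 51.8, 23.8 and 28.1 CPM in *Cldn2*TG CAC. The groups overlapped, and mice 2, 5 and 7 were the highest of theirs. The differences were -0.12 ± 0.33, 0.20 ± 0.41 and 0.09 ± 0.31 for WT CAC against naive WT, *Cldn2*TG CAC over WT CAC, and *Cldn2*TG CAC over naive WT (adjusted p = 0.832, 0.850 and 0.895). The last of these turned to -0.02 with library size as the only normalization, and the 95% interval of the second was -0.77 to 1.18.

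*Il10rb* (chr16:91406164-91425834, +) had 68.2, 70.2 and 70.1 CPM in naive WT, 95.9, 90.3 and 79.9 CPM in WT CAC and 77.6, 67.1 and 82.8 CPM in *Cldn2*TG CAC. Each WT CAC mouse was above each naive WT mouse, and the difference was small and just past the threshold (0.38 ± 0.11, adjusted p = 0.0491). It was lost when any of the mice 1 to 6 was left out (adjusted p = 0.0527 to 0.163). *Cldn2*TG CAC overlapped both other groups, at -0.25 ± 0.13 against WT CAC (adjusted p = 0.318) and 0.13 ± 0.10 against naive WT (adjusted p = 0.452). A gene model on the same strand, Gm21970, overlaps *Il10rb*, so that reads in the shared exons may have been divided or dropped.

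**Figure D3:**
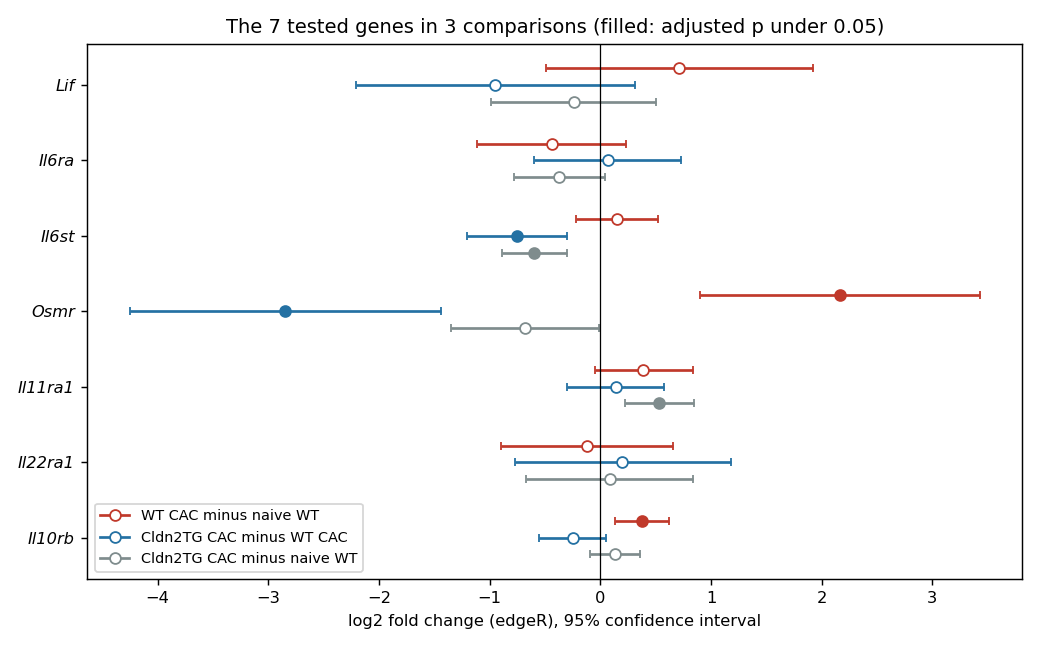
Log2 fold changes of the 7 tested genes in 3 comparisons, with 95% confidence intervals and filled points for an adjusted p under 0.05. *Osmr* lies farthest from 0 in both comparisons with WT CAC, and the *Il6st* points lie to the left of 0 in both comparisons of *Cldn2*TG CAC.

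Of the 7 tested genes, 2 (*Osmr* and *Il6st*) were lower in *Cldn2*TG CAC than in WT CAC, where 9.54% of all 14888 genes tested were called. The median log2 fold change of the 7 genes was -0.25, against 0.01 over all genes. In WT CAC against naive WT, 2 genes (*Osmr* and *Il10rb*) were higher, where 15% of genes were called, with a median of 0.38 against 0.02. Compared with naive WT, *Cldn2*TG CAC had *Il11ra1* higher and *Il6st* lower, where 10.0% were called and 912 of the 1501 called genes were lower. With library size as the only normalization the median of all genes in that comparison moved to -0.11, with 276 genes higher and 1310 lower, and *Il6st* was at -0.71. The comparisons share mice, so their calls are not independent. Groups that did not overlap in CPM were common among all genes: 28.5% between *Cldn2*TG CAC and WT CAC, 38.0% between WT CAC and naive WT and 31.2% between *Cldn2*TG CAC and naive WT. With 3 mice a group, the smallest p of a two-sided exact permutation test of 1 gene is 0.1, which *Osmr* reached in each comparison and *Il6st* in both comparisons of *Cldn2*TG CAC.

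Receptor make-up within a library was described by the level per length of each alpha or specific chain as a percentage of its shared partner, with no test. *Osmr* was 4.05 to 4.69% of *Il6st* in naive WT, 6.90, 23.3 and 20.4% in WT CAC mice 4, 5 and 6, and 3.09 to 5.14% in *Cldn2*TG CAC. It was thus highest in WT CAC and overlapped between the other groups. *Il11ra1* was 62.8 to 74.4% of *Il6st* in naive WT, 50.3 to 105% in WT CAC and 112 to 188% in *Cldn2*TG CAC. Each *Cldn2*TG CAC mouse, and WT CAC mouse 4, thus had more *Il11ra1* than *Il6st* per length. Between *Cldn2*TG CAC and WT CAC, *Il6st* was called lower and *Il11ra1*, whose level is uncertain, was not called (0.14, adjusted p = 0.764 by edgeR). *Il6ra* was 17.7 to 23.7%, 9.72 to 16.7% and 20.9 to 34.5% of *Il6st*. *Lifr*, whose product pairs with gp130 for LIF, was 17.6 to 42.2%, 11.6 to 16.3% and 28.9 to 35.4%. For these 2 chains WT CAC lay below both other groups in every mouse. *Il22ra1* was 60.4 to 85.2%, 27.1 to 74.8% and 50.3 to 98.9% of *Il10rb*, with overlapping groups.

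**Figure D4:**
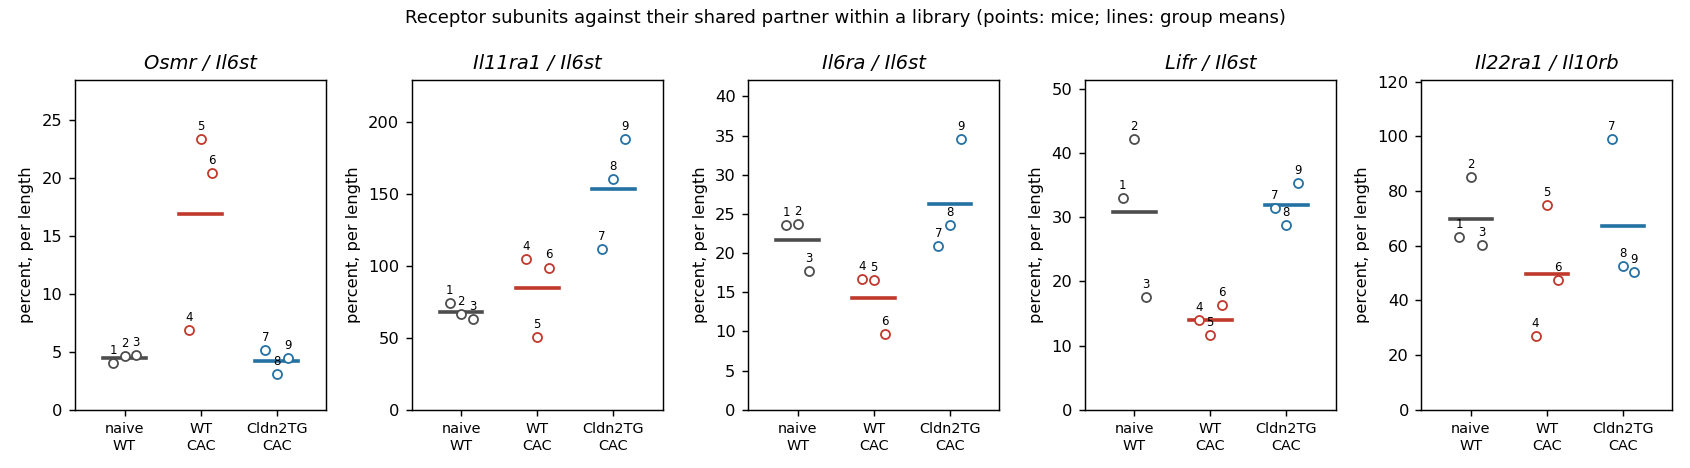
Level per length of 5 receptor chains as a percentage of *Il6st* or *Il10rb* in the same library, with 1 point per mouse, its number and a line at the group mean. *Osmr* is highest relative to *Il6st* in WT CAC mice 5 and 6, and *Il11ra1* is highest in *Cldn2*TG CAC.

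The genes whose pattern was most like that of a receptor called in a comparison with WT CAC were ranked by Pearson's r of log2 CPM over the 9 mice, among 15712 genes, as a description. For *Osmr* these were *Spon1* (r = 0.986), *Igf1* (0.983) and *Csf1r* (0.983), the last a macrophage marker. For *Il6st* they were the motor protein gene *Myo5a* (0.985) and the basement membrane collagens *Col4a2* (0.977) and *Col4a1* (0.974). For *Il10rb* they were *Git2* (0.940), *Map3k14* (0.926) and *Rab37* (0.915). The 9 points of each correlation fall into 3 groups and share the libraries.

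The other genes of the pathway, 62 in lists by role, were mostly not called. Between *Cldn2*TG CAC and WT CAC, 42 were tested, 7 fell and none rose, with a median log2 fold change of -0.52. In WT CAC against naive WT, 46 were tested, 16 rose and none fell (median 0.47). Of 37 tested between *Cldn2*TG CAC and naive WT, *Socs3*, *Saa2* (0.55 ± 0.09, adjusted p = 0.00693) and *Duoxa2* (0.94 ± 0.22, adjusted p = 0.0347), 3 in all, rose and none fell, while none was called with all 9 libraries in 1 fit. The *Duoxa2* call was also lost without mouse 2 or 3 (adjusted p up to 0.121). *Saa2* was called in 5 of 8 processing alternatives and was lost with either lane alone as well. The counts with all mice are 16.7%, 34.8% and 8.11% of the genes tested, beside the 9.54%, 15% and 10.0% of all genes given above. With at least 10 counts in every library, 2 of 33 fell in the first comparison, where 908 of 13192 genes were called. In the second 9 of 36 rose, where 1890 of 13696 were called. Over the other processing alternatives the counts were 3 (lane 2 only) to 15 (DESeq2) lower in the first. In the second they were 7 (no filter) to 19 higher, with at most 1 lower. Without WT CAC mouse 4 the first and the second counts were 24 lower and 23 higher with 1 lower, and the share of all genes called also went up, to 19.2% and 25.7%. The 24 genes of the first included all 7 called with that mouse and 17 more, and those of the second included 15 of the 16, all but *Ebi3*, and 9 more. Without one of the other mice the counts were 0 to 3 lower in the first and 0 to 4 higher in the second, with 1 lower without mouse 3.

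Among the other ligands of the IL-6 family, *Clcf1*, a gp130 ligand of the CNTF receptor, was 0.502 to 0.747 CPM in naive WT, 1.33 to 2.81 CPM in WT CAC and 0.253 to 0.758 CPM in *Cldn2*TG CAC. It rose in WT CAC (1.91 ± 0.40, adjusted p = 0.0224) and was lower in *Cldn2*TG CAC than in WT CAC (-2.15 ± 0.49, adjusted p = 0.0287), with WT CAC mouse 4 among the high mice. Both calls held without mouse 4 or mouse 5 and were lost without any other mouse (adjusted p up to 0.0966 and 0.122). *Ebi3*, a subunit of IL-27, rose in WT CAC from 0.0869 to 0.299 CPM to 0.619 to 0.711 CPM (1.78 ± 0.48, adjusted p = 0.0428), a call lost without any of the 6 mice (adjusted p = 0.0545 to 0.151). *Il27ra*, the IL-27 receptor alpha chain, was 0.151 to 0.738, 1.34 to 2.30 and 0.276 to 0.355 CPM in the 3 groups. It rose in WT CAC (1.91 ± 0.51, adjusted p = 0.0446) and was lower in *Cldn2*TG CAC (-2.43 ± 0.41, adjusted p = 0.0120). The first call was lost without any mouse but mouse 4 (adjusted p up to 0.126), and the second without mouse 7, 8 or 9 (adjusted p up to 0.0707).

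In the IL-10 and IL-22 group, 4 of 10 genes were tested. *Il22* itself had at most 2 reads in a library and 0 in each *Cldn2*TG CAC mouse, so no difference in the IL-22 ligand was detectable at this depth. *Il10ra*, the IL-10 receptor chain that pairs with *Il10rb*, was lower in *Cldn2*TG CAC (0.886 to 1.72 CPM) than in WT CAC (2.90 to 5.76 CPM), at -1.84 ± 0.37 (adjusted p = 0.0201). This call was lost without mouse 5, 6, 8 or 9 (adjusted p up to 0.0987), and 1 mouse of naive WT, at 2.99 CPM, lay within the WT CAC range. No gene of the group passed in WT CAC against naive WT with all 6 mice. *Il10ra* was at 1.45 (adjusted p = 0.0816) and passed without mouse 4 (1.68, adjusted p = 0.0349) and without mouse 1. Those not called included the decoy receptor gene *Il22ra2* (4.47 to 6.35 CPM in WT CAC) and *Ifnlr1*, the highest of the list.

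Of the genes that induce IL-22, *Il1b*, encoding interleukin-1 beta, was 0.402 to 0.697 CPM in naive WT, 1.78, 18.8 and 10.0 CPM in WT CAC and 0.456 to 0.886 CPM in *Cldn2*TG CAC. It rose in WT CAC (4.10 ± 0.84, adjusted p = 0.0249) and was lower in *Cldn2*TG CAC (-4.00 ± 0.86, adjusted p = 0.0322). Without mouse 4 the adjusted p was 0.000249 and 8.75e-05, the first call also held without mouse 5 (3.31, against -3.20 for the second), and without another mouse both were lost (adjusted p up to 0.102 and 0.138). *Il23a*, a subunit of IL-23, was 0.559, 0.884 and 3.15 CPM in WT CAC against 0.0995 to 0.174 CPM in naive WT (3.36 ± 0.78, adjusted p = 0.0303). That call was lost without mouse 1, 2 or 3 (adjusted p up to 0.107), and the value was 2.32 without mouse 6.

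Among the genes of receptor shedding and signal transduction, *Stat3*, encoding the transcription factor that both systems activate, was 166, 160 and 152 CPM in naive WT, 123, 218 and 186 CPM in WT CAC and 161, 143 and 148 CPM in *Cldn2*TG CAC, with overlapping groups and no call. The lowest value was that of WT CAC mouse 4. Without it *Stat3* moved from 0.17 (adjusted p = 0.590) to 0.36 in WT CAC against naive WT (adjusted p = 0.0452), and from -0.24 (adjusted p = 0.535) to -0.44 in *Cldn2*TG CAC against WT CAC (adjusted p = 0.0460), both past the threshold. RNA levels do not measure phosphorylation of this protein.

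Of 5 feedback inhibitors, *Socs3*, *Socs1* and *Ptpn6* rose in WT CAC. *Socs3*, a direct target of STAT3 that binds gp130, was 7.61, 5.02 and 6.60 CPM in naive WT, 15.2, 108 and 54.0 CPM in WT CAC and 9.64, 10.7 and 15.6 CPM in *Cldn2*TG CAC. It rose in WT CAC by 3.23 ± 0.68 on the log2 scale (adjusted p = 0.0281), and *Cldn2*TG CAC was above naive WT in each mouse (0.90 ± 0.22, adjusted p = 0.0300). *Cldn2*TG CAC against WT CAC was -2.33 and did not pass the test (adjusted p = 0.0835), and the 2 groups overlapped at mouse 4 and mouse 9. Without mouse 4 it was -2.78 and passed (adjusted p = 0.0015), as did *Socs1* (-1.20, adjusted p = 0.0195, from -1.03, adjusted p = 0.0826). The rise in WT CAC held without mouse 4 or 5 (2.46 without the latter), that in *Cldn2*TG CAC without mouse 1 or 7, and both were lost without another mouse (adjusted p up to 0.104 and 0.0956). *Socs1* rose by 1.25 ± 0.29 (adjusted p = 0.0308). *Ptpn6*, which encodes the phosphatase SHP-1, rose in WT CAC (0.45 ± 0.10, adjusted p = 0.0265) and was lower in *Cldn2*TG CAC (-0.46 ± 0.12, adjusted p = 0.0422). The *Socs1* and *Ptpn6* calls held without mouse 4 and were lost without any other mouse (adjusted p up to 0.159).

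Of 18 epithelial and STAT3 target genes, 8 of 17 tested rose in WT CAC, where 15% of all genes were called, and 2 of 16 tested fell in *Cldn2*TG CAC against WT CAC, a share near the 9.54% of all genes. *Timp1*, an inhibitor of matrix metalloproteinases, was 0.498 to 0.956 CPM in naive WT, 1.78, 5.39 and 7.83 CPM in WT CAC and 0.405 to 0.517 CPM in *Cldn2*TG CAC. It rose in WT CAC (2.94 ± 0.58, adjusted p = 0.0199) and was lower in *Cldn2*TG CAC (-3.42 ± 0.57, adjusted p = 0.0118), the first call being lost without mouse 1, 2, 3 or 5 and the second without mouse 7, 8 or 9 (adjusted p up to 0.0877 and 0.0724). *S100a9*, a calprotectin subunit, was 0 to 0.304 CPM in naive WT, 0.762, 22.1 and 11.9 CPM in WT CAC and 0.138 to 0.152 CPM in *Cldn2*TG CAC (5.92 ± 1.36, adjusted p = 0.0342, and -6.26 ± 1.37, adjusted p = 0.0386). *S100a8* rose with it in WT CAC (6.57 ± 1.48, adjusted p = 0.0327). *Saa3*, an acute-phase gene, and *Bcl3*, a coregulator of NF-kB, rose by 5.86 ± 1.31 (adjusted p = 0.0325) and by 1.09 ± 0.22 (adjusted p = 0.0210). *Reg3g*, an antimicrobial lectin gene induced by IL-22, was 0.0502 to 0.869 CPM in naive WT, 3.10, 39.1 and 207 CPM in WT CAC and 0.665 to 1.62 CPM in *Cldn2*TG CAC, and rose in WT CAC (7.21 ± 1.70, adjusted p = 0.0378). The calls of *S100a8*, *S100a9*, *Saa3*, *Bcl3* and *Reg3g* held without mouse 4 and were lost without any other mouse (adjusted p up to 0.143). In WT CAC against naive WT, the processing alternatives that tested them called *Reg3g* in 4 of 7 and *Saa3* in 6 of 7. They called *S100a8* and *S100a9* in 4 of 5 each and *Bcl3* in 8 of 8 (adjusted p up to 0.148 for *Reg3g*). The size of several of these changes rested on single mice: in WT CAC against naive WT, *Reg3g* was 5.23 and *Saa3* 5.0 without mouse 6, *S100a8* was 8.43 without mouse 3 and 5.94 without mouse 5, and *S100a9* was 5.05 without mouse 5 (-5.38 in *Cldn2*TG CAC against WT CAC). In *Cldn2*TG CAC against WT CAC, *Saa3* (-5.39, adjusted p = 0.0501), *Bcl3* (-0.70, adjusted p = 0.110) and *Reg3g* (-6.16, adjusted p = 0.0678) did not pass, and without mouse 4 they did (adjusted p = 1.55e-05, 0.00521 and 0.0222). *S100a8* and *S100a9* are also neutrophil genes. The sum of 5 neutrophil markers, which include them, was 0.0502 to 0.825 CPM in naive WT, 2.03 to 51.4 CPM in WT CAC and 0.222 to 0.507 CPM in *Cldn2*TG CAC, leaving out *Ly6g*. With *Ly6g*, a neutrophil surface antigen gene, the sum was 137 to 208, 300 to 378 and 302 to 351 CPM, because *Ly6g* alone was 137 to 207, 298 to 327 and 302 to 350 CPM. *Ly6g* was thus higher than in naive WT both in WT CAC (0.82, adjusted p = 0.0206) and in *Cldn2*TG CAC (0.87, adjusted p = 0.00881), while *Cldn2*TG CAC against WT CAC was at 0.04 and did not pass the test (adjusted p = 0.902). Already in naive WT *Ly6g* was far above the other 5 markers, so its level is not read as a measure of neutrophils. The part of neutrophils in these levels was not tested.

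**Figure D5:**
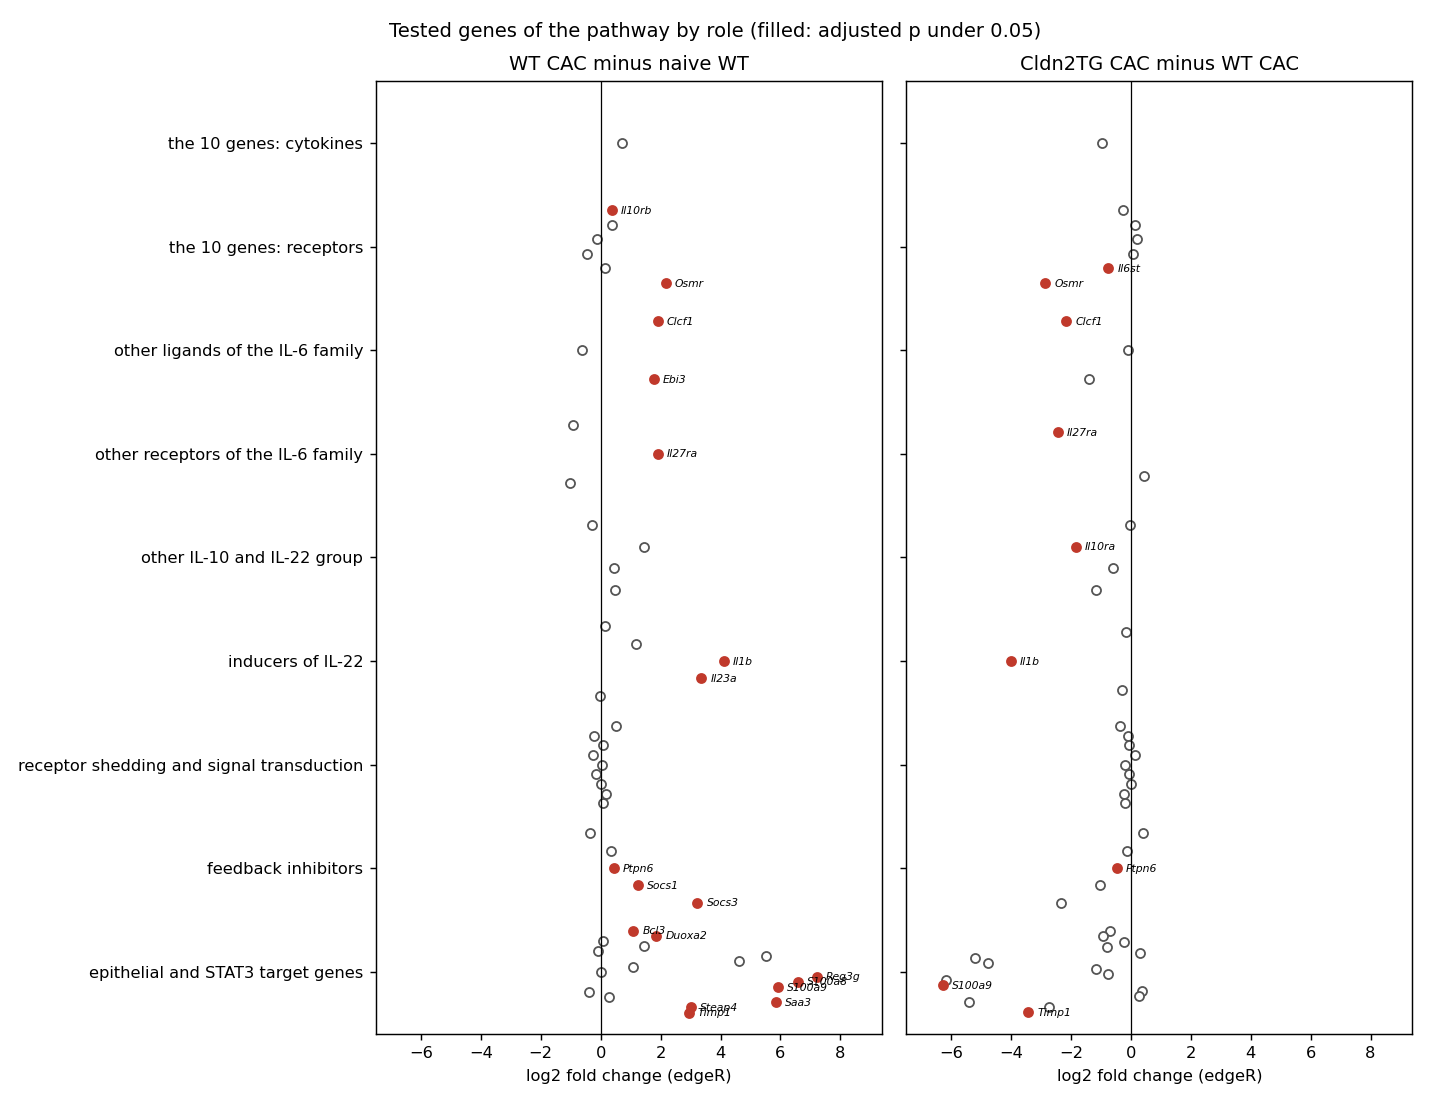
Log2 fold changes of the tested genes of the pathway by role in WT CAC relative to naive WT and in *Cldn2*TG CAC relative to WT CAC, with filled and named points for an adjusted p under 0.05. The called genes lie to the right of 0 in the first comparison and to the left in the second.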

How the data were processed

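RNA-Seq was done on colon of 9 mice in 3 groups of 3 (naive WT, WT CAC, *Cldn2*TG CAC). RNA was isolated with a Quick-RNA kit and sequenced on a NovaSeq6000. The authors deposited whole-number read counts per gene, with 18 columns for 2 lanes of 9 libraries; per the labels, the processing notes name HISAT2, Subread featureCounts and the GRCm38 build, whereas the methods name TopHat2. Versions and strand setting are not given in the sources used here. Counts of reads that map to several genes may be lost, which bears on paralogs. Given the lane totals of a library, genes with at least 20 counts split close to sampling noise (chi-square per degree of freedom 0.995 to 1.057). Lane 2 held fewer reads than lane 1 in mice 6, 7 and 9 (4023472, 5757674 and 4811928 against 10119239, 9143133 and 10060059). The lanes were added. Of the 47729 genes, 47224 had a symbol in GENCODE M21.

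Pairs of groups were compared with edgeR 4.0.16 in R 4.3.3 (TMM, filterByExpr with minimum count 10 and minimum total 15, robust two-sided quasi-likelihood test, Benjamini-Hochberg adjustment over all genes tested, called at an adjusted p under 0.05); ± after a log2 fold change is its standard error, derived from the test statistic. The labels number the libraries R1 to R9 and do not say how the animals of a group were kept; each is taken as 1 mouse, and p-values measure the spread between these libraries. The exact permutation test used CPM. FPKM divides CPM by the table's gene length. The test was checked on simulated counts. Alternatives were DESeq2 1.42.0, library size only, upper quartile, no filter, at least 10 counts in every library, all 9 libraries, either lane alone and leaving out each mouse. DESeq2 without the filter, and leaving out each mouse without it, were added after seeing the data.

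The 10 genes, the pathway lists and the marker lists were chosen with earlier results of these data known. Besides the 10 genes, up to 4 called genes with the lowest adjusted p per list and comparison, or otherwise up to 2 with the highest CPM, were to be named; *Cldn2*, *Xist*, *Il22*, *Il11ra2*, *Lifr*, *Stat3*, *Reg3g*, *Ly6g*, the squamous markers, the genes of the third comparison and the overlapping genes were named after their values were seen. Protein sequences were not used here. Another gene of the pathway lists is not reported here, and the counts leave it out.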

Additional observations from a re-analysis of the deposited data

How the results depend on the processing

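Of 294 values of the tested genes under the alternatives (21 log2 fold changes), 241 kept their direction and their side of the threshold, 38 kept the direction and were no longer called, 2 became called and 13 turned in sign. All that turned belonged to differences that were not called. In *Cldn2*TG CAC against WT CAC, *Il6ra* turned to -0.03 with library size only, -0.06 with lane 1 only and -0.14 without mouse 6, *Il11ra1* to -0.03 without mouse 5, and *Il22ra1* to -0.06 without mouse 4 and -0.20 without mouse 7. In WT CAC against naive WT, *Il6st* turned to -0.02 without mouse 5, and *Il22ra1* to 0.05 without mouse 2 and 0.14 without mouse 4. Between *Cldn2*TG CAC and naive WT, *Lif* turned to 0.04 without mouse 8, and *Il22ra1* to -0.02 with library size only, -0.01 without mouse 3 and -0.34 without mouse 7; of the genes fitted without the filter, *Il11* turned to 0.07 without mouse 1 and 0.20 without mouse 9, and *Osm* to -0.62 without mouse 9. At the other end of the values with a mouse left out, these reached 0.40 for *Il6ra*, 0.30 for *Il11ra1* and 0.66 for *Il22ra1* in the first comparison, 0.29 for *Il6st* and -0.57 for *Il22ra1* in the second, and -0.47 for *Lif*, 0.30 for *Il22ra1*, -0.73 for *Il11* and 1.95 for *Osm* in the third.

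The number of the 10 genes called in *Cldn2*TG CAC against WT CAC was 2, fell to 1 with lane 1 only, and was 0 to 4 with a mouse left out, 4 of them without mouse 4 (*Il11*, *Lif*, *Il6st* and *Osmr*), where 19.2% of all genes were called against 9.54% with all mice. *Il11* did not pass the filter with all mice. It entered that fit with 50 and 37 reads in WT CAC mice 5 and 6, against 4, 8 and 1 in *Cldn2*TG CAC. In WT CAC against naive WT the number of genes called was 2, fell to 1 with lane 2 only, and was 0 to 4 with a mouse left out. Between *Cldn2*TG CAC and naive WT it was 2, fell to 1 with library size only, with lane 1 only and with lane 2 only and to 0 with all 9 libraries in 1 fit, and was 0 to 2 with a mouse left out. Without the filter, *Osmr* was not called in the first (adjusted p = 0.0706) and neither *Osmr* (adjusted p = 0.0747) nor *Il10rb* (adjusted p = 0.102) in the second, where *Il11* in both and *Osm* in the second were. DESeq2 called the same 2 genes in each comparison, with *Osmr* at an adjusted p of 5.24e-06 and 0.00036.

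Over all genes, 1421 were called in *Cldn2*TG CAC against WT CAC, 908 with at least 10 counts in every library, 2136 with all 9 libraries and 58 to 2894 with a mouse left out. In WT CAC against naive WT 2310 were called, and 135 to 4080 with a mouse left out. Between *Cldn2*TG CAC and naive WT 1501 were called, 2567 without the filter, 445 with all 9 libraries and 525 to 1383 with a mouse left out. The cause of these shifts was not tested, other than that leaving out a mouse removes 1 of 6 libraries. No paired analysis was possible because the labels give no litter or other pairing of the mice. With 3 mice a group and at most 50 reads of *Il11*, 29 of *Osm*, 3 of *Il6* and 2 of *Il22* in a library, depth limits what can be said of the ligands more than of the receptors.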
